A study of Homo sapiens with 8 samples.

Results

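The RNAs described here are 10 long non-coding RNAs that are commonly followed in cancer and stress studies: NEAT1, MALAT1, GAS5, H19, PVT1, TP53TG1, DLEU2, MEG3, SNHG1 and SNHG12. They were taken by name and matched to array probes through the transcript accession of each probe. Of the 10, 9 were matched, with 28 probes among the 42391 probes kept, and all 9 were well above background on every array by their chosen probe. DLEU2 was not analysed here. The whole series held 20296 genes named in this way, of which 15811 were tested.

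RNA came from MCF10A (p53+/+), a line of immortalized but non-tumorigenic epithelial cells from human breast with an intact p53 gene, and from its p53-/- derivative, which lacks p53. The cells were exposed to adriamycin (ADR, also called doxorubicin), an anthracycline that breaks DNA and so activates the transcription factor p53. By the sample labels the dose was 0.5 µg/ml for 2 h. The methods text gives a higher dose. Harvests followed at 12, 24 and 48 h, with untreated cells at 0 h as controls. There was 1 single-colour array for each genotype and time point, 8 in all, so values carry no replicate error and a single time point has no test. How p53 was removed, where in the gene, and whether the p53-/- line is a single clone is not given in the labels. No untreated cells were harvested at the later times.

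Long non-coding RNAs are transcripts without a protein product. NEAT1 is the scaffold of paraspeckles, nuclear bodies built with RNA-binding proteins such as NONO and SFPQ, and MALAT1, its neighbour in the genome, accumulates in nuclear speckles, where splicing factors gather. GAS5, SNHG1 and SNHG12 carry small nucleolar RNAs (snoRNAs) in their introns, and their spliced transcripts are known substrates of nonsense-mediated decay, a translation-dependent route of RNA turnover. H19 and MEG3 are imprinted RNAs made from the maternal chromosome. PVT1 lies next to MYC. TP53TG1 was named as a target gene of p53.

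The promoter of TP53TG1, the RNA with the widest genotype difference here, is shown first because it is shared with a coding gene whose values are given below. In the RefSeq windows of the build GRCh38.p14, TP53TG1 starts on the minus strand and CROT, which encodes a peroxisomal carnitine acyltransferase, starts 172 bases away on the plus strand. The window from 250 bases before to 50 bases after the TP53TG1 start lies at chr7:87345443-87345742 and is printed 5′ to 3′ along the minus strand. Capitals mark the 171 bases between both starts.
TP53TG1: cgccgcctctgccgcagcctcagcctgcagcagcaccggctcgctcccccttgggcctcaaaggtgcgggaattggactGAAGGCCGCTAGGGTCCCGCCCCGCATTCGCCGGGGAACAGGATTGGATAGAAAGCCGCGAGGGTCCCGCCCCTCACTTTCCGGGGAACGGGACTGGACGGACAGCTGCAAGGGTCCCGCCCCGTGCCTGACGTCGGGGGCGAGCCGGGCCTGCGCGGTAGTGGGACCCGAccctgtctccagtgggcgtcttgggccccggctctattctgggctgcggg

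The p53 half-site consensus, which reads the same on both strands, was searched for without mismatches in the 10 windows of the 7 RNAs that had one. It was found in 0 of these 10 windows, against 6.63% of all 35116 windows in the table. This says only that these letters are not in those windows. NEAT1 and PVT1 had no window in the table and were not searched.

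Transcripts that host snoRNAs are known for pyrimidine-rich start sites, so the stretches from 20 bases before to 40 bases after the annotated start are shown for the 3 hosts, again from RefSeq, GRCh38.p14, along the minus strand. Capitals mark the longest uninterrupted run of C and T in each stretch, or the first where runs tie. GAS5 lies at chr1:173869006-173869065, SNHG1 at chr11:62855846-62855905 and SNHG12 at chr1:28581834-28581893.
GAS5: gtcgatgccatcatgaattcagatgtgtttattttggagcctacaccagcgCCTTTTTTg
SNHG1: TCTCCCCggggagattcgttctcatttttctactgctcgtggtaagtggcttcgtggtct
SNHG12: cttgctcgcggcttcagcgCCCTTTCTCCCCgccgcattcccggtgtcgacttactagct

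The run of SNHG12 covers the annotated start and is 12 bases long, a length reached by 5.21% of all windows over the same stretch. The runs of GAS5 (8 bases, reached by 22.5% of windows) and SNHG1 (7 bases, reached by 32.9%) do not cover the annotated start. SNHG1 holds another run of 7 bases, in lower case, shortly after its start.

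Levels below are log2 processed signals minus the log2 of the same array's 75th percentile, so a level of 0 equals that percentile and a difference of 1 is 2-fold. Levels of different probes are not comparable with each other. The array labelled p53+/+ 0 h read with the p53-/- arrays for genes such as IGF2, whose values are given below. There was no other untreated p53+/+ array to set beside it. Every change from it is therefore given together with the change from the p53-/- 0 h array. The comparison of treated p53+/+ with treated p53-/- arrays uses neither 0 h array and is the base of this report. CDKN1A, the cell cycle inhibitor p21, and MDM2, the ubiquitin ligase that restrains p53, were both called higher in treated p53+/+ cells (mean log2 differences of 3.31 and 3.15).

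Depth in the sense of read counts does not apply to arrays, and the number of arrays limits the precision. The 75th percentile of the processed signal ranged from 661.2 to 1014.9 on the p53+/+ arrays and from 879.3 to 1198.8 on the p53-/- arrays, so the scaling moved the genotypes relative to each other. The p53+/+ 48 h array stood apart, with 0 of 10 spike-in probes well above background against 6 on each other array. All 8 arrays sat on 1 slide. The first position number in the array barcodes was 2 for the p53+/+ arrays and 1 for the p53-/- arrays. The place on the slide can therefore not be told apart from the genotype. Of 10 markers of basal mammary epithelium, 9 exceeded background on each of the 8 arrays, and the set summed to 8.87 to 9.40 (log2) on the treated p53+/+ arrays, 7.88 to 8.18 on the treated p53-/- arrays and 7.71 to 8.33 on both 0 h arrays. The 6 fibroblast markers summed to 2.11 to 2.39 (log2) on the treated p53+/+ arrays, 5.71 to 6.07 on the treated p53-/- arrays and 5.77 to 5.87 on both 0 h arrays, with 1 of the 6 above background on all arrays and COL1A2 and COL3A1 on none. The 6 luminal markers (4 above background on all arrays, PGR on none) summed to 6.06 to 6.57 against 5.29 to 6.01 on the treated p53-/- arrays, and to 5.31 to 5.35 at 0 h. The 4 endothelial markers (1 on all arrays) summed to -2.48 to -2.13 against -1.48 to -0.98, and to -1.42 to -1.40 at 0 h. The ranges of the treated genotypes did not overlap in any of these 4 sets, and their part in the results below was not tested. In such bulk RNA, fewer cells of a type and less RNA per cell cannot be told apart.

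The main question was which of these RNAs differed between cells with and without p53 after DNA damage. TP53TG1, H19 and NEAT1 were at least 2-fold higher in treated p53+/+ than in treated p53-/- cells at all 3 time points, and PVT1 was at least 2-fold higher at 12 and 24 h. That made 3 of 9 RNAs higher and 0 lower by the rule of 2-fold at all 3 times, against 6.75% of all genes tested that were higher and 5.92% that were lower. MALAT1 and MEG3 passed 2-fold only at 48 h, and GAS5, SNHG1 and SNHG12 at no time. The counts higher at the single times were 4, 4 and 5 of 9 at 12, 24 and 48 h, against 12.8%, 13.1% and 16.0% of all genes. The median of the mean differences over the 9 RNAs was 0.64, beside 0.05 over all genes. The RNAs were chosen with earlier results of these data known, so the shares over all genes are given for scale and are no test of the set.

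**Figure D1:**
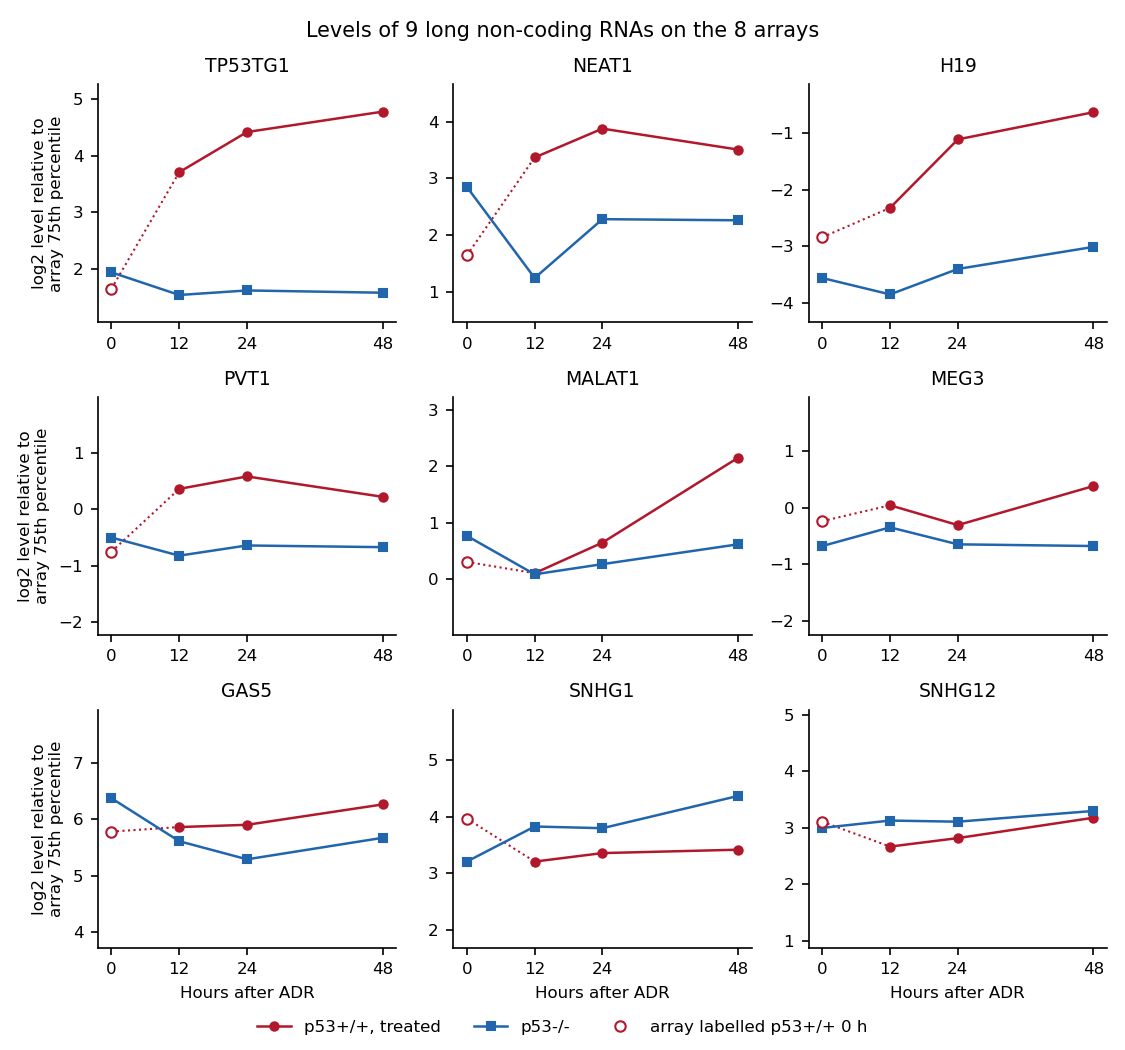
Levels of the 9 long non-coding RNAs (log2 signal minus that of the array's 75th percentile, vertical axis) against hours after ADR (horizontal axis). Each point is 1 array, every panel spans the same log2 range, and the open circle is the array labelled p53+/+ 0 h. TP53TG1, NEAT1, H19 and PVT1 ran above their p53-/- values on all 3 treated arrays. So did GAS5, MEG3 and MALAT1, with smaller mean differences and, for MALAT1 at 12 h, by only 0.02.

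A fit of the 6 treated arrays was made with limma. The 3 time points of a genotype took the place of replicates, so the p-values set the genotype difference against the movement over time. It called 4 of 9 RNAs higher in p53+/+ cells (TP53TG1, PVT1, NEAT1 and H19) and 0 lower, against 11.6% of all genes higher and 9.34% lower. At an unadjusted p under 0.05, 5 were higher and 1 was lower. The split of all calls moved with the scaling, and this bears on the RNAs near the threshold. With the 75th percentile 58.8% of the called probes were higher in p53+/+, with quantile normalization 48.3%, with median scaling 45.7% and without scaling 14.5%, where the median difference of all genes shifted to -0.55. Without scaling, TP53TG1 and H19 stayed called, NEAT1 (1.06, adjusted p = 0.0644) and PVT1 (0.50, adjusted p = 0.129) did not, and SNHG1 and SNHG12 were called lower. Leaving out the 24 h arrays left no RNA called, and leaving out the 48 h arrays left PVT1 and TP53TG1.

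**Figure D2:**
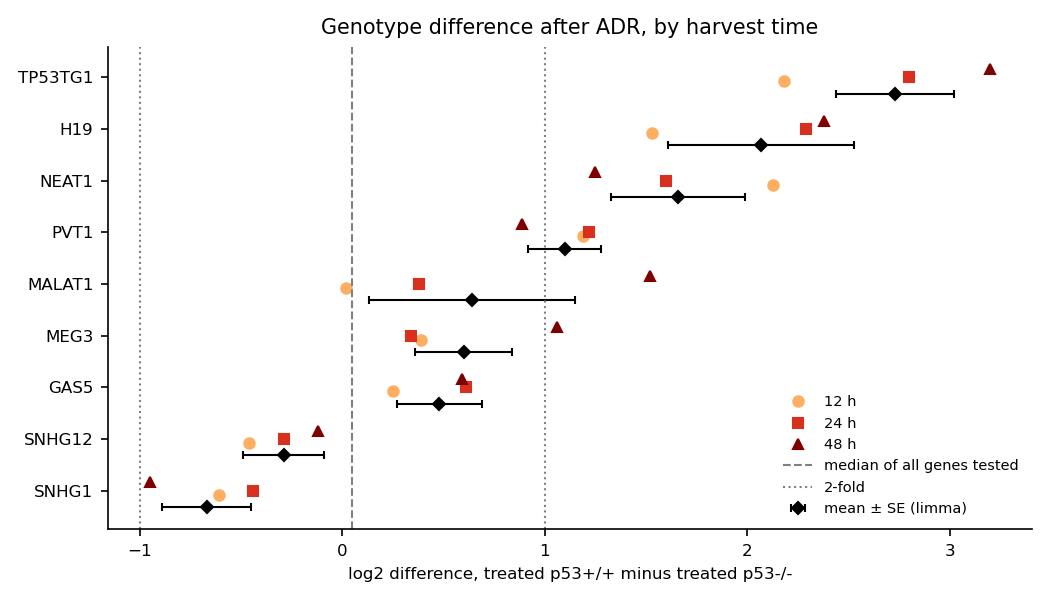
Log2 difference between treated p53+/+ and treated p53-/- arrays (horizontal axis) for each RNA (vertical axis) at each harvest time, with the mean and its limma SE as a black diamond. Dotted lines mark 2-fold and the dashed line the median of all genes tested. TP53TG1, H19 and NEAT1 lay past 2-fold at all 3 times.

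TP53TG1 had the widest difference. Its levels were 3.71, 4.42 and 4.78 at 12, 24 and 48 h on the treated p53+/+ arrays and 1.54, 1.62 and 1.58 on the treated p53-/- arrays. The genotypes did not overlap, and each later p53+/+ array read higher than the one before. The difference grew from 4.52-fold at 12 h to 6.97-fold at 24 h and 9.19-fold at 48 h. The mean difference was 2.73 ± 0.29 (SE, n = 3 time points against 3; limma adjusted p = 0.00257), or 6.62-fold. The second probe of TP53TG1 gave 2.47 (adjusted p = 0.0044).

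The 2 untreated arrays read 1.65 (labelled p53+/+) and 1.94 (p53-/-) for TP53TG1, next to the treated p53-/- levels. Treated p53+/+ cells were thus higher by 2.07, 2.77 and 3.13 (log2) than the array labelled p53+/+ 0 h and by 1.78, 2.48 and 2.84 than the p53-/- 0 h array. In p53-/- cells the change from 0 h was between -0.40 and -0.32.

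H19, an imprinted fetal growth-related RNA, also separated by genotype, by its chosen probe. It read -2.32, -1.11 and -0.63 on the treated p53+/+ arrays and -3.85, -3.40 and -3.01 on the treated p53-/- arrays. The lowest p53+/+ value lay above the highest p53-/- value by 0.70, and the level was higher at each later time in both genotypes. The differences were 2.89-fold, 4.89-fold and 5.21-fold in time order, with a mean of 2.07 ± 0.46 (SE; limma adjusted p = 0.0266). The signal was low, from 74.6 to 427 units. The second H19 probe had a mean difference of 2.35 that missed the threshold (limma adjusted p = 0.0947), and its genotypes overlapped, since the p53+/+ 12 h array (-3.17) read below the p53-/- 48 h array (-2.87). The p53-/- 0 h array read -3.56 and the array labelled p53+/+ 0 h read -2.84. From the first of these the treated p53+/+ arrays were higher by 1.24, 2.45 and 2.93, and from the second by 0.53, 1.73 and 2.21. By the second probe the 12 h change was 0.53 from the p53-/- 0 h array and 1.08 from the array labelled p53+/+ 0 h, so the probes disagreed on which baseline took the 12 h value past 2-fold.

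NEAT1 was the third RNA past 2-fold at every time, and the one whose difference narrowed. Its levels were 3.37, 3.88 and 3.51 on the treated p53+/+ arrays and 1.24, 2.28 and 2.26 on the treated p53-/- arrays. The genotypes did not overlap, with a gap of 1.09. The difference was 4.39-fold at 12 h, 3.02-fold at 24 h and 2.38-fold at 48 h, with a mean of 1.66 ± 0.33 (SE; limma adjusted p = 0.0195). From 12 to 24 h the narrowing ran with the p53-/- level, which rose from 1.24 to 2.28. From 24 to 48 h it ran with the p53+/+ level, which fell from 3.88 to 3.51 while the p53-/- level barely moved. All 3 NEAT1 probes were at least 2-fold higher at all times and were called, with mean differences from 1.48 to 1.84.

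The untreated arrays disagreed on NEAT1 more than on any other of these RNAs. The p53-/- 0 h array read 2.85 and the array labelled p53+/+ 0 h read 1.64, a difference of -1.22 in the direction opposite to that after treatment. From the array labelled p53+/+ 0 h, the treated p53+/+ arrays were higher by 1.74, 2.25 and 1.88. From the p53-/- 0 h array they were higher by only 0.52, 1.03 and 0.66. In p53-/- cells NEAT1 lay below its own 0 h value by 1.61 at 12 h, with changes of -0.57 and -0.59 after that. The size of the NEAT1 rise after ADR therefore depended on the baseline, whereas its genotype difference after treatment did not use one.

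PVT1 had the most probes and a smaller difference. Its chosen probe read 0.36, 0.58 and 0.22 on the treated p53+/+ arrays and -0.82, -0.64 and -0.67 on the treated p53-/- arrays, without overlap. The differences were 2.28-fold, 2.33-fold and 1.86-fold, with a mean of 1.10 ± 0.18 (SE; limma adjusted p = 0.0112). All 8 PVT1 probes were called higher, with mean differences from 0.74 to 1.87, and 3 of the 8 were at least 2-fold higher at all 3 times. The 4 p53-/- arrays and the array labelled p53+/+ 0 h lay within 0.32 of each other.

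**Figure D3:**
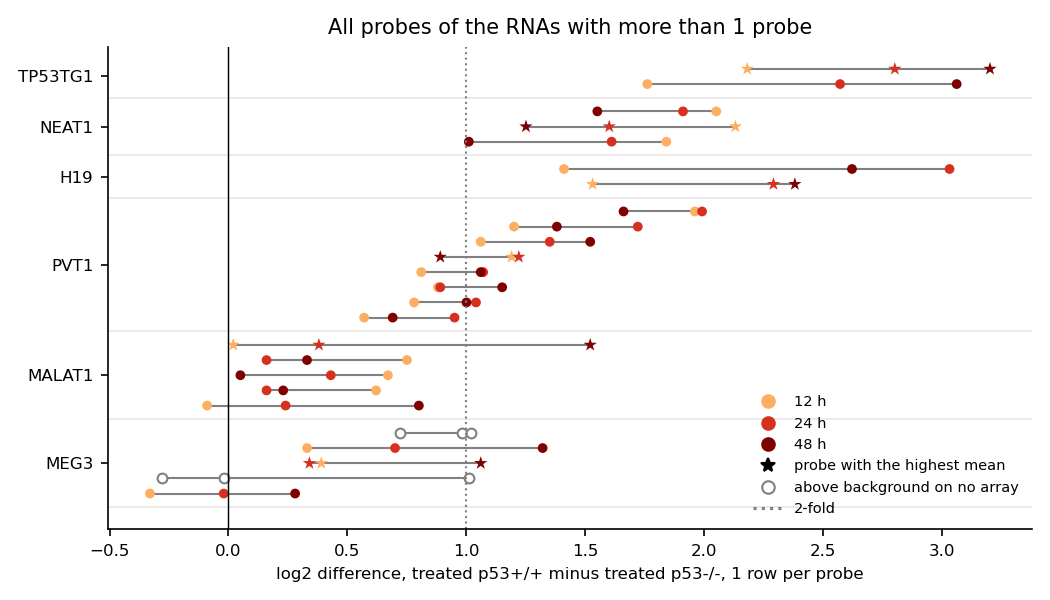
Log2 difference between treated p53+/+ and treated p53-/- arrays (horizontal axis) for each probe of the 6 RNAs with more than 1 probe, with 1 row per probe and 1 point per harvest time. Every probe of TP53TG1, NEAT1, H19 and PVT1 lay above 0 at all 3 times, and the 5 MEG3 probes did not run together.

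MALAT1 did not separate by genotype by its chosen probe. It read 0.11, 0.65 and 2.15 on the treated p53+/+ arrays and 0.09, 0.27 and 0.62 on the treated p53-/- arrays, so that only the p53+/+ 48 h array stood out, 2.87-fold above its p53-/- counterpart. The mean difference was 0.64 ± 0.51 (SE; limma adjusted p = 0.428). The 5 probes disagreed by time. The chosen probe and 1 other were highest on the p53+/+ 48 h array, with 48 h differences of 1.52 and 0.80. The other 3 had 48 h differences from 0.05 to 0.33 and were highest on the p53+/+ 12 h array. Their 12 h differences were 0.67, 0.75 and 0.62, against 0.02 by the chosen probe. By 1 of these 3 the treated genotypes did not overlap, with a gap of 0.08. None of the 5 probes was called. The p53+/+ 48 h array is the one without spike-in signal, and the part of this in the MALAT1 value was not tested.

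MEG3 read 0.04, -0.31 and 0.38 on the treated p53+/+ arrays and -0.35, -0.65 and -0.68 on the treated p53-/- arrays. The genotypes were separated by only 0.03, and the mean difference was 0.60 ± 0.24 (SE; limma adjusted p = 0.132). Without scaling it was -0.0024. Of its 5 probes, 2 were above background on no array, and another, above background on 6 arrays, had a mean difference of -0.03.

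The 3 snoRNA hosts stayed within 2-fold between treated genotypes at every time and did not share a direction. GAS5, a growth-arrest-associated host, read 5.86, 5.90 and 6.26 on the treated p53+/+ arrays and 5.61, 5.29 and 5.67 on the treated p53-/- arrays, a mean difference of 0.48 ± 0.21 (SE; limma adjusted p = 0.158) that became -0.11 without scaling. In p53-/- cells it lay below the 0 h value of 6.37 at all 3 times, by 0.76, 1.08 and 0.70, whereas from the array labelled p53+/+ 0 h (5.78) the p53+/+ changes were 0.07, 0.12 and 0.47. From the p53-/- 0 h array the same p53+/+ levels differed by -0.51, -0.47 and -0.11, so the direction turned with the baseline.

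SNHG1 ran the other way. It read 3.21, 3.36 and 3.42 on the treated p53+/+ arrays and 3.83, 3.80 and 4.37 on the treated p53-/- arrays, which did not overlap. The mean difference was -0.67 ± 0.22 (SE; limma adjusted p = 0.0832), equal to a level 1.59-fold higher in p53-/- cells. It was called lower in p53+/+ under median scaling (-0.80, adjusted p = 0.0431), without scaling (-1.27, adjusted p = 0.0118), with normexp background correction (adjusted p = 0.0278) and with the stricter filter on dim probes (adjusted p = 0.0446). SNHG12 had the narrowest range of the 9, 0.63 over all 8 arrays. It read 2.67, 2.82 and 3.18 on the treated p53+/+ arrays and 3.13, 3.11 and 3.30 on the treated p53-/- arrays, with a mean difference of -0.29 ± 0.20 (SE; limma adjusted p = 0.365).

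By non-overlap of the 3 treated arrays of each genotype, 6 of the 9 RNAs were higher in p53+/+ cells (NEAT1, GAS5, H19, PVT1, TP53TG1 and MEG3) and 1 was lower (SNHG1), against 24.6% and 19.9% of all genes. From the array labelled p53+/+ 0 h, NEAT1 and TP53TG1 were at least 2-fold higher at all 3 treated times and no RNA was lower, against 9.53% of genes higher and 6.39% lower. From the p53-/- 0 h array, the RNAs past the same rule in treated p53+/+ cells were H19 and TP53TG1 and none was lower (9.55% of genes higher and 6.79% lower). In p53-/- cells 0 of 9 passed it in either direction, against 3.21% of genes higher and 2.04% lower.

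The genes next to these RNAs were compared with them on the same arrays. CROT, which shares the promoter region printed above with TP53TG1, read -1.93, -1.55 and -1.24 on the treated p53+/+ arrays and -4.27, -4.21 and -4.44 on the treated p53-/- arrays. Its mean difference of 2.73 ± 0.23 (SE; limma adjusted p = 0.0011), or 6.63-fold, stood beside 6.62-fold for TP53TG1. Its second probe, above background on 3 of the 6 treated arrays, gave 2.00 (limma adjusted p = 0.0458), so the near-equal folds are those of the chosen probes. The chosen CROT probe was above background on all 8 arrays but dim on the p53-/- arrays. The technical SD of 1 difference, from repeated spots, was 0.44 for CROT and 0.10 for TP53TG1. By the chosen probe both 0 h arrays read close to the p53-/- level (-4.61 and -4.65).

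IGF2, the growth factor gene of the H19 domain, went in the opposite direction to H19. It read -2.86, -2.77 and -3.53 on the treated p53+/+ arrays and 3.96, 3.72 and 3.50 on the treated p53-/- arrays. By this probe the level was 110-fold lower in p53+/+ cells (-6.78 ± 0.27, SE; limma adjusted p = 0.000113). The p53-/- 0 h array read 4.30 and the array labelled p53+/+ 0 h read 4.05, with the p53-/- group. Both IGF2 probes were called lower, but the second, above background on no treated p53+/+ array, gave -3.17, a level at least 3.31-fold lower (limma adjusted p = 0.000913). The fibroblast markers above were lower on the same 3 arrays. MRPL23, a mitochondrial ribosome gene whose span overlaps H19 in the annotation, differed by -0.10.

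FRMD8, the coding gene nearest to NEAT1 in the gene order, read 2.30, 3.28 and 2.86 on the treated p53+/+ arrays and 1.46, 1.72 and 1.89 on the treated p53-/- arrays. It was called higher (1.12 ± 0.29, SE; limma adjusted p = 0.0421), but not without scaling (0.52, adjusted p = 0.214), and its second probe was not called. MYC, the proto-oncogene next to PVT1, crossed its p53-/- level, at 2.71, 3.33 and 4.71 on the treated p53+/+ arrays against 3.47, 3.62 and 3.51, with a mean difference of 0.05. DLK1 (0.35, next to MEG3), ZBTB37 (-0.63, overlapping GAS5), SLC3A2 (-0.04, next to SNHG1) and TRNAU1AP (0.46, overlapping SNHG12) were not called. Of the 2 genes of the DLEU2 region, TRIM13 differed by -0.03, and DLEU1 was called lower (-1.08; limma adjusted p = 0.038) by 1 of its 4 probes. In all, 2 of 12 neighbours were called higher and 2 lower, beside 11.6% and 9.34% of all genes.

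**Figure D4:**
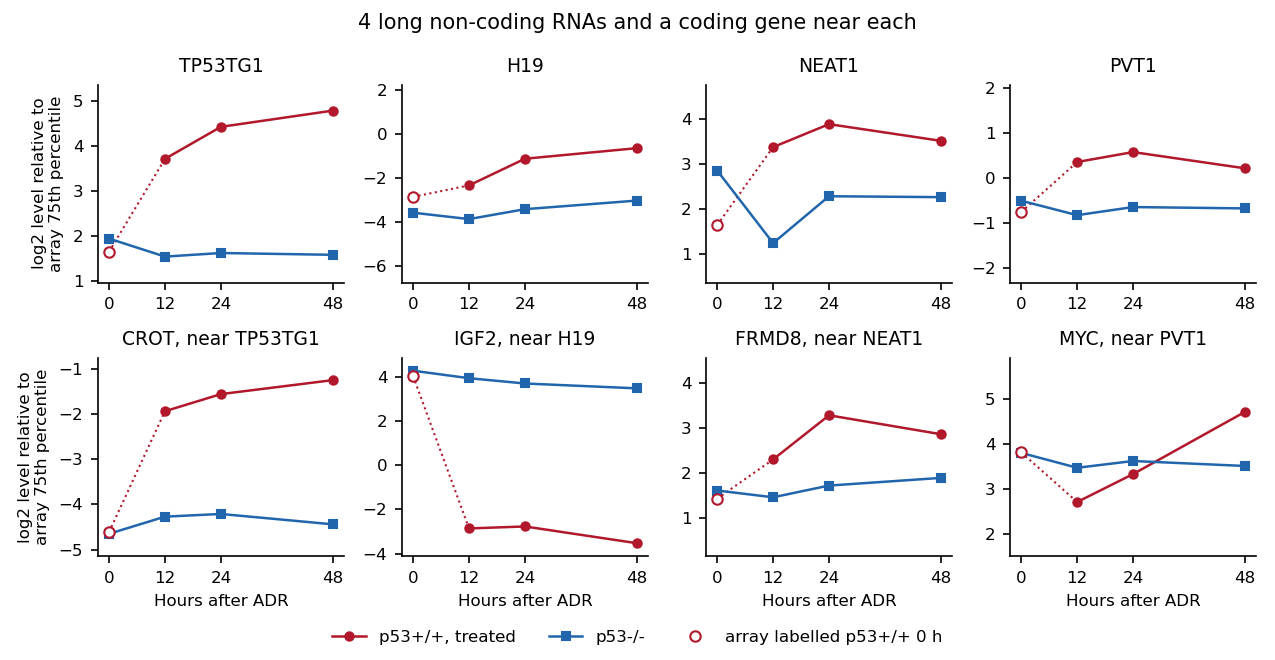
Levels (log2 signal minus that of the array's 75th percentile, vertical axes, whose span is wider for H19 and IGF2) against hours after ADR for 4 RNAs (top) and a coding gene near each (bottom), with 1 point per array. CROT ran with TP53TG1, IGF2 ran opposite to H19, and MYC crossed over while PVT1 did not.

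The proteins and RNAs that these transcripts work with were followed as lists, whose counts stand beside 11.6% of all genes called higher and 9.34% called lower. Of 15 paraspeckle proteins, the partners of NEAT1, limma called 0 in either direction (at an unadjusted p under 0.05, 0 were higher and 1, HNRNPH3, was lower), and the median difference was -0.13. Of 17 snoRNA host genes, GAS5, SNHG1 and SNHG12 included, 1 was called higher and 0 lower (2 and 1 at an unadjusted p under 0.05), with a median of -0.10. The called one was SNHG11 (1.36, adjusted p = 0.0209), whose 7 probes disagreed, since their mean gave -0.01. Of 14 factors of nonsense-mediated decay, the endonuclease gene SMG6 was called higher (0.99), though not without scaling, and UPF3B (-1.18), SMG9 (-0.92) and EIF4A3 (-0.85) were called lower. The median of that list was -0.16.

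Of 6 RNAs known from other work to be linked to p53, which include NEAT1, TP53TG1 and MEG3, 4 were called higher and 0 lower, with a median of 1.85. The other 2 called were LINC-PINT and PURPL. LINC-PINT, an RNA induced by p53, read -0.75, 0.25 and 0.34 on the treated p53+/+ arrays and -2.55, -1.87 and -1.86 on the treated p53-/- arrays (2.04; limma adjusted p = 0.0134). PURPL was above background on 2 of the treated p53+/+ arrays and on no p53-/- array. It thus entered the fit only through arrays where it was high. Its call (limma adjusted p = 0.00721), 1 of the 4, sets signal against background values. With p53-/- values raised to the lowest signal well above background, its mean was 2.97-fold higher in treated p53+/+ cells. That mean includes an array on which PURPL was not above background, so the fold is no firm bound. Of 18 other named long non-coding RNAs, 4 were called higher and 2 lower, beside the same 11.6% and 9.34%, with a median of 0.13. Besides LINC-PINT, which is on both lists, those higher were UCA1 (2.23, 4.69-fold), MIR22HG, a microRNA host (1.64, 3.12-fold), and NORAD, which binds Pumilio proteins (0.92, not called without scaling), and those lower were OIP5-AS1 (-1.47) and DLEU1. All 8 reference targets of p53 were called higher, with a median of 3.07.

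**Figure D5:**
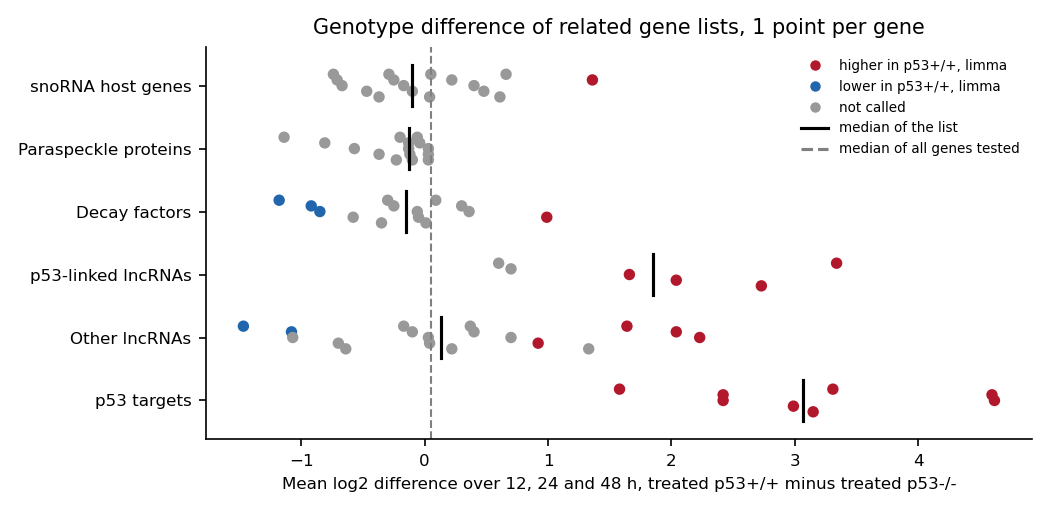
Mean log2 difference over 12, 24 and 48 h between treated p53+/+ and treated p53-/- arrays (horizontal axis), 1 point per gene, for 6 gene lists (vertical axis). Black bars mark list medians and the dashed line the median of all genes tested (0.05). The snoRNA hosts, paraspeckle proteins and decay factors centred near 0, and the p53 targets near 3.07.

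The genes with the profile closest to each RNA over the 8 arrays were found by the root mean square distance between profiles centred on their own means, among 11828 genes. For NEAT1 these were FRMD4B (0.23), PTPRE (0.23) and F2R (0.24), beside a median distance of 0.92 over all genes. For TP53TG1 they were PRKXP1 (0.18), FOXP1 (0.22) and MAPKBP1 (0.22), for H19 ANXA8L1 (0.24), OSBP2 (0.25) and TMC6 (0.25), and for PVT1 H2BC26 (0.07), KRTAP10-12 (0.08) and SDHA (0.08). GAS5 was closest to CARMN (0.09), EPB41L4A-AS1, another snoRNA host (0.10), and HEATR3 (0.11). MALAT1 was closest to RPPH1, the RNA of ribonuclease P (0.19), LYPLAL1 (0.20) and MFSD6 (0.22), MEG3 to NPB (0.05), POLR2J2 (0.09) and WDFY4 (0.10), and SNHG1 to DERL1 (0.09), ZNF263 (0.09) and SART1 (0.10). Among the 9 RNAs themselves the closest pair was SNHG1 and SNHG12 (0.27) and the most distant TP53TG1 and SNHG1 (1.59). These distances share the same 8 arrays and their scaling and are a description without a test.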

How the data were processed

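RNA of 8 samples was hybridised to single-colour Agilent arrays. The authors deposited, per the file headers, the output of Feature Extraction 10.7.3.1 (hg19 design), in which the processed signal is a background-corrected intensity; the deposited table of the series holds the same values. Normalization between arrays is not given in the sources used here. Spots flagged as uneven or outliers were left out, the log2 of the deposited intensity minus that of the array's 75th percentile was taken, and repeated spots were averaged per probe. Probes (27235 of 42405, of which 42391 kept values on all arrays) were named through RefSeq accessions (GRCh38.p14), and a gene took its probe with the highest mean. A total of 28947 probes (well above background on 1 or more arrays) entered limma 3.58.1 (lmFit, eBayes; R 4.3.3) on genotype over the 6 treated arrays, with 4 residual degrees of freedom and Benjamini-Hochberg adjustment over all of them (threshold 0.05), after the fit was tested on simulated data. Technical SDs came from 999 probes printed in 10 spots. Alternatives were quantile normalization, median scaling, no scaling, normexp (offset 50), means of probes, 2 filters, a 3-fold rule, time as a block, each time left out, and the p53-/- 0 h baseline. The RNAs, the lists and the naming rule (all RNAs and neighbours; at most 6 called or 2-fold genes per list; 3 closest profiles where the level spanned at least 1) were chosen with earlier results of these data known. A few genes under the naming rule are not reported here. Python 3.11.15, numpy 2.4.6, pandas 2.3.3 and matplotlib 3.10.9 were used.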

Additional observations from a re-analysis of the deposited data

Results flagged for a closer look

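In 5 of the 9 RNAs all 3 changes from 0 h went one way in p53+/+ cells and the other way in p53-/- cells, by the labels and the chosen probes. For PVT1, 1 of the 8 probes did not show this, since it rose in p53-/- cells too (0.97, 0.61 and 0.26). The 5 were 4 RNAs up in p53+/+ and down in p53-/- (11.3% of the 15811 genes tested) and 1 the reverse (11.1%). Signs of any size were counted, and the GAS5 changes in p53+/+ cells of 0.07 and 0.12 at 12 and 24 h lay near the technical SD of 1 difference, 0.09. The mean change in p53+/+ minus that in p53-/- was 3.02 (log2) for TP53TG1, 2.88 for NEAT1, 1.35 for PVT1, 1.07 for GAS5 and -1.43 for SNHG1. These differences were not tested, and each rests on the array labelled p53+/+ 0 h, which read with the p53-/- arrays for IGF2. Taken from the p53-/- 0 h array instead, the changes in p53+/+ cells were 1.78, 2.48 and 2.84 for TP53TG1, 0.52, 1.03 and 0.66 for NEAT1 and 0.87, 1.08 and 0.72 for PVT1, whereas for GAS5 all 3 changes were below 0 (-0.51, -0.47 and -0.11) and for SNHG1 they were at most 0.21.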

How the results depend on the processing

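The count of RNAs at least 2-fold apart between treated genotypes at all 3 times stayed within 1.5 times its value of 3 under 7 of 8 alternatives. It fell to 1, TP53TG1, with a 3-fold rule. The 2 filters could not change this count or those from 0 h, since all 9 RNAs were well above background on all 8 arrays. The RNAs behind the count changed: NEAT1 dropped out without scaling and H19 with normexp, and PVT1 joined with means of probes. TP53TG1 passed under every alternative. The counts from 0 h were the same under every alternative, although the p53-/- 0 h baseline replaced NEAT1 with H19. The limma count of 4 became 0 without the 24 h arrays (4 RNAs at an unadjusted p under 0.05) and 2 without the 48 h arrays, and lay between 3 and 5 otherwise. Without scaling, the mean difference turned to -0.11 for GAS5 and to -0.0024 for MEG3. Over all probes, limma called 5201 with the reported settings, 9393 without scaling, 9894 with normexp, 12536 without a filter, and 2670, 292 and 2571 without the 12, 24 and 48 h arrays. The cause was not tested, except that leaving out a time removes 2 of 6 arrays. Replicate numbers pair nothing, as each group holds 1 array. Treated arrays could be paired by harvest time, and with time as a block limma called the same 4 RNAs. Within an array, the SD of 1 spot was 0.429 below a level of -4 and 0.063 above 4.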

Other observations

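Further values concern the untreated p53-/- array, and were looked up after the NEAT1 values had been seen. Along with NEAT1, the RNAs LINC-PINT and NORAD read higher on the p53-/- 0 h array than on the array labelled p53+/+ 0 h, with p53+/+ minus p53-/- differences of -1.22, -1.10 and -0.83 (log2). Each of them also read lower at 12 h than at 0 h in p53-/- cells, at 1.24 against 2.85 for NEAT1, -2.55 against -1.25 for LINC-PINT and 1.64 against 2.31 for NORAD. Both traits were also seen in TERC, another long non-coding RNA, which was not called after treatment (mean difference of -0.10). Its 0 h difference was -1.41, and in p53-/- cells it read 0.23 at 12 h against 1.63 at 0 h. CDKN1A ran the other way in p53-/- cells, from -2.97 at 0 h to -0.96, -0.64 and -0.48 after ADR. HOTAIR was at least 2-fold higher in treated p53+/+ cells at all 3 times, with a mean difference of 1.33 that missed the limma threshold (adjusted p = 0.0611). Over the alternatives its mean difference ran from -0.17, the mean of its probes, to 1.46, so its direction turned.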
